A study of Rattus with 108 samples.

Results

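The skin response to surgery in 2 rat models was compared at 10 days, as the change in skin/muscle incision and retraction (SMIR) minus the change in lateral paw incision (LPI). Each change ran from 0 day to 10 days, so the comparison was chosen by the model, tissue and time labels and drew on 16 of the 108 libraries of the series: 4 of skin from SMIR rats at 0 day, 4 from SMIR rats at 10 days, 4 from LPI rats at 0 day and 4 from LPI rats at 10 days. The study used LPI for acute and SMIR for chronic postsurgical pain and checked the animals with von Frey filaments, which test sensitivity to touch. Incised skin was dissected from rats that had been anesthetized with isoflurane and perfused with saline, and its RNA was sequenced with strand-specific libraries. The sources used here give no strain, sex or age, do not say whether the 0 day rats had any procedure, and do not name the body site of the SMIR incision. The labels number replicate animals within a group, but the extraction protocol mentions pools of RNA. The p-values rest on the spread between libraries within groups, shared over all 9 groups of a tissue, whether libraries are rats or pools.

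An incision in skin sets off clotting and an inflammatory phase with incoming neutrophils and macrophages, followed by regrowth of the epidermis and new matrix made by fibroblasts, and then by a long phase of remodelling. LPI is an incision of the paw, whereas SMIR also stretches the skin and the muscle beneath it with a retractor. Touch hypersensitivity is known to last longer after SMIR. Muscle was sampled in both models, and its genes changed at 2 days in LPI as well. At 10 days both wounds are usually closed. The comparison asks which genes of the skin differed between the models in their change from their own site's starting level.

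Total counts in the 16 libraries ran from 19080096 to 32024175, with LPI at 0 day the least deeply sequenced group (up to 29386121) and the 8 SMIR libraries from 27233007 upward. The 100 most abundant genes took 29.0% to 39.1% of counts in LPI and 22.2% to 26.0% in SMIR. The slope of a library's level on gene length, in log2 units for each doubling of length, was −0.08 to 0.07 in LPI and 0.07 to 0.13 in SMIR. No 2 libraries of a group agreed within sampling noise. Among the other skin libraries, which share the estimate of the spread, that of rat 1 at 32 days of SMIR lay with the 10 day libraries of SMIR rats 3 and 4 on the second principal component and apart from the other 32 day libraries. Genes carry Ensembl IDs only, and 0 of the 32623 IDs matched the rat gene table at hand, so the genes are described by ID and by groups built from the counts, and lists of named cell type or pathway genes were not applied.

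At 10 days skin differed between the models mostly through genes that were called as changed in SMIR, with no call in LPI. A missing call in LPI does not show that a gene kept its level there. Of 17584 genes tested, 1378 changed more upward or less downward in SMIR than in LPI (7.84% of genes) and 1071 the reverse (6.09%), with edgeR's quasi-likelihood test at an adjusted p under 0.05. Among these 2449 genes (13.9%) the median absolute difference was 1.00 on the log2 scale with a median SE of 0.26. The difference was at least 2-fold in 502 of the genes called higher (2.85% of genes) and in 715 of those called lower (4.07%). An unadjusted p under 0.05 was reached by 4989 genes. Over all genes tested the median difference was −0.03.

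Taken one model at a time, 5325 genes changed in SMIR skin between 0 day and 10 days (30.3%), 3112 of them upward (17.7%) and 2213 downward (12.6%). In LPI skin 491 genes changed (2.79%), 340 upward (1.93%) and 151 downward (0.859%). The LPI count rested on single libraries: with rats 1, 2 or 4 of the 0 day group left out in turn it was 59, 213 or 175, and with rats 5, 6 or 7 of the 10 day group left out it was 118, 217 or 915. A fit of the 8 LPI libraries alone called 2 genes and DESeq2 called 1039. Of the 1378 genes higher in the difference, 1190 rose in SMIR with no call in LPI, 21 rose in SMIR and fell in LPI, 48 fell in LPI alone, 116 were called in neither model and 3 rose in both. Of the 1071 genes lower in the difference, 862 fell in SMIR with no call in LPI, 19 fell in SMIR and rose in LPI, 66 rose in LPI alone and 124 were called in neither. These counts use the libraries of the difference itself and only locate it.

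**Figure D1:**
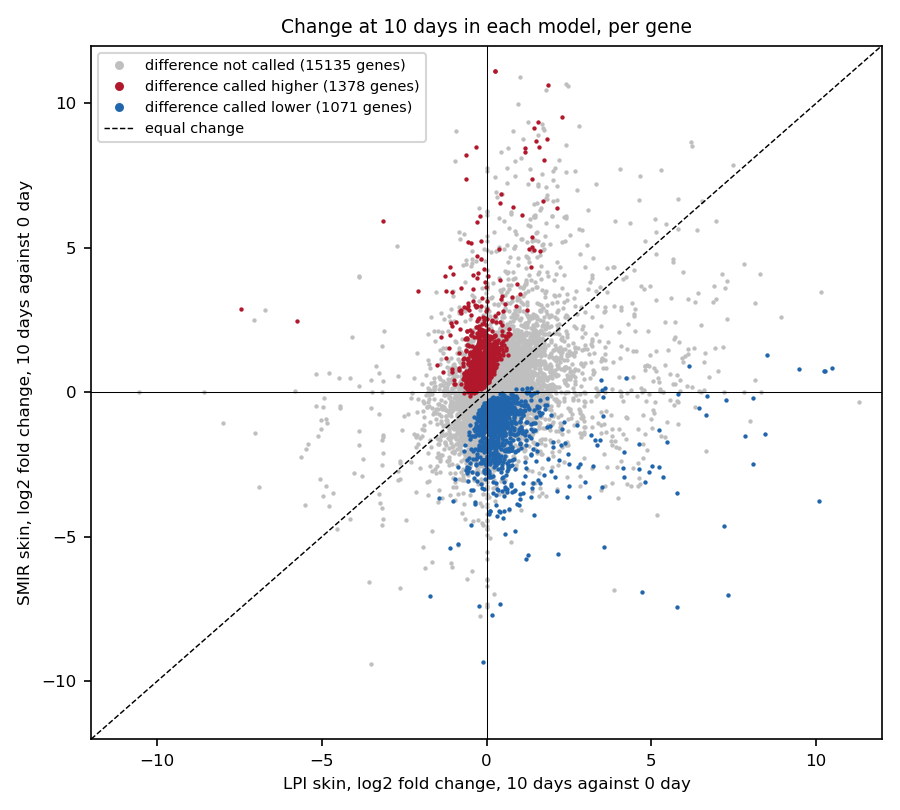
Each point is 1 of the 17584 genes tested, with the log2 fold change from 0 day to 10 days in LPI skin on the x axis and in SMIR skin on the y axis. Red and blue points are the 1378 genes called higher and the 1071 called lower in SMIR change minus LPI change, and most of them spread along the vertical axis, where LPI changed little.

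The levels behind the difference were read in every library as the median over genes of log2(CPM + 0.5), where CPM is the count scaled to a common library total with TMM factors. The genes were called from the same 16 libraries, so a gap between the SMIR times is partly built in. These levels describe the difference and do not test it. For the genes called higher this median was 4.60, 4.67, 4.69 and 4.61 in SMIR at 0 day and 5.31, 5.31, 5.31 and 5.30 at 10 days. In LPI it was 5.62, 5.68, 5.50 and 5.61 at 0 day and 5.48, 5.52, 5.32 and 5.47 at 10 days. All 4 SMIR libraries at 10 days thus lay above all SMIR libraries at 0 day and just below the lowest LPI library at 10 days, and the LPI ranges of both times overlapped. For the genes called lower the median was 5.19, 5.25, 5.20 and 5.36 in SMIR at 0 day and 4.28, 4.16, 4.12 and 4.21 at 10 days. The LPI values were 3.67, 3.79, 3.98 and 3.71 at 0 day and 3.94, 4.08, 4.18 and 4.08 at 10 days. The SMIR libraries thus fell between the times to levels that overlap with LPI at 10 days, and 3 of the 4 LPI libraries at 10 days were above the LPI range of 0 day. Fewer cells of a type and less RNA per cell cannot be told apart in whole tissue. Genes called lower took 15.7% ± 0.669 of all counts in SMIR at 0 day and 7.70% ± 0.302 at 10 days (SD, n = 4), against 6.25% ± 0.733 and 7.14% ± 0.627 in LPI. Genes called higher took 9.38% ± 0.342 and 14.6% ± 0.439 in SMIR, against 24.4% ± 1.78 and 20.7% ± 1.38 in LPI.

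**Figure D2:**
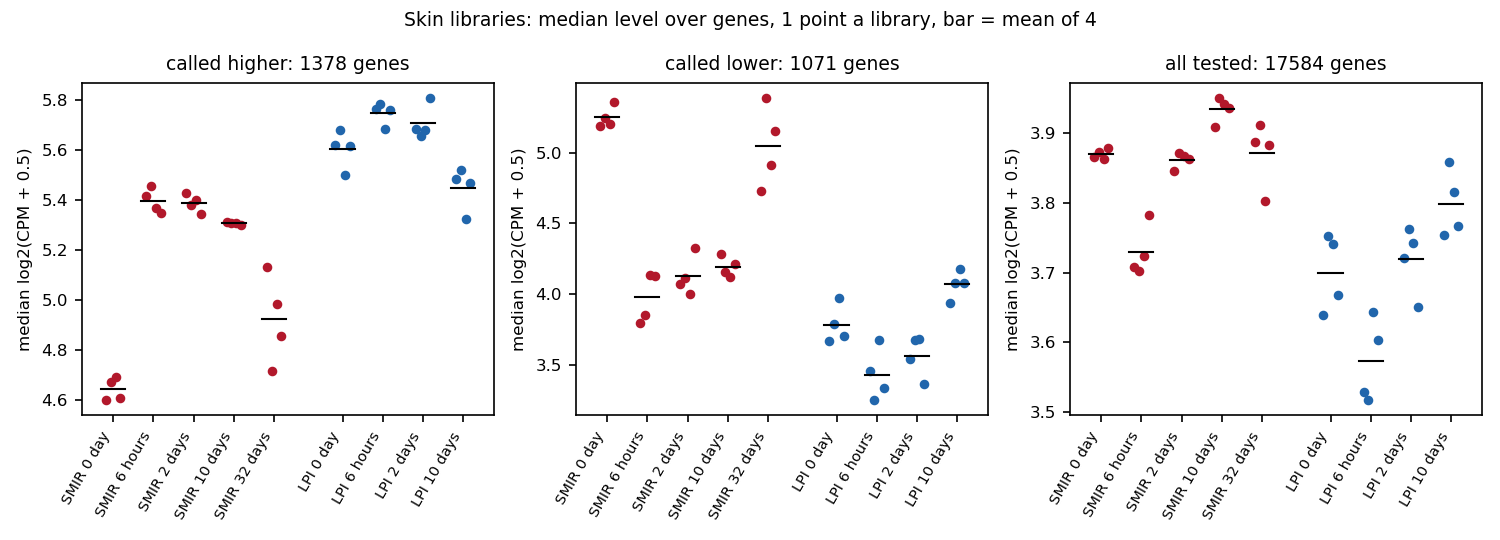
The y axis gives the median log2(CPM + 0.5) over the genes called higher (left), called lower (middle) and all tested (right), with 1 point for each of the 36 skin libraries and a bar for the mean of 4. The SMIR points of the called genes leave their 0 day level by 6 hours and lie closer to it at 32 days than at 2 days in most libraries, while the median of all genes stays between 3.52 and 3.95 (the y axes differ).

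Skin of both models already differed at 0 day, and most genes of the difference were among those that did. At 0 day 8977 genes differed between SMIR and LPI skin (51.1%), 4673 higher and 4304 lower in SMIR. At 10 days 4931 did (28.0%), 2356 higher and 2575 lower. Over all genes the median absolute difference between the sites was 0.58 at 0 day and 0.37 at 10 days on the log2 scale. Genes lower in the SMIR minus LPI change were higher in SMIR at 0 day in 926 of 1071 cases (26.6% over all genes) and at 10 days in 140 (13.4% over all genes), and the median site difference of these genes was 1.39 and 0.00. Genes higher in the change were lower in SMIR at 0 day in 1267 of 1378 cases (24.5% over all genes) and at 10 days in 398 (14.6% over all genes), with median site differences of −0.93 and −0.09. These comparisons share their libraries with the difference, so the counts describe its composition. A fit with the length slope of each library as a covariate called 4558 genes between the sites at 0 day instead of 8977, while for the change at 10 days it called 1989, of which 1803 were among the 2449.

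Other time points placed the 10 day difference on a longer course. Relative to the same 0 day libraries, genes called lower had median log2 changes of −1.28 at 6 hours, −0.98 at 2 days, −1.05 at 10 days and −0.15 at 32 days in SMIR, and of −0.37, −0.17 and 0.24 at 6 hours, 2 days and 10 days in LPI. Genes called higher had medians of 0.80, 0.75, 0.64 and 0.31 in SMIR and of 0.12, 0.12 and −0.14 in LPI. All of these changes use the 0 day libraries of their model. SMIR skin at 32 days against 2 days compares groups outside the 16 libraries, though in the same fit with its shared estimate of the spread. It called 7102 genes (40.4%), 3685 higher (21.0%) and 3417 lower (19.4%). Of the 1071 genes lower in the 10 day difference, 675 (63.0%) were higher at 32 days than at 2 days and 26 were lower. Of the 1378 genes higher in the difference, 741 (53.8%) were lower at 32 days than at 2 days and 53 were higher. Both shares exceeded the share over all genes, and with 1 of the 8 libraries left out the counts were 586 to 706 and 617 to 852, the highest of both without rat 1 at 32 days. With the length slope as a covariate the counts were 261 and 352. They were taken among the genes that this fit itself called lower and higher in the difference, not among the 1071 and 1378. That fit called 1599 genes higher and 1614 lower at 32 days than at 2 days in all.

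The same 10 day libraries were also set against the 2 day libraries in place of those of 0 day. This change between 2 and 10 days differed between the models in 2029 genes (11.5%), 1044 higher (5.94%) and 985 lower (5.60%) in SMIR minus LPI. Genes called lower in the difference from 0 day had a median of −0.47 here and genes called higher a median of 0.18. The 10 day libraries are shared by both differences.

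The 1217 genes that differed at least 2-fold were sorted by their course in the 20 skin libraries taken at 6 hours, 2 days and 32 days. These are in none of the 4 groups of the difference but share its fit. Correlation clustering gave 5 patterns of at least 50 genes, called A to E, that held 1098 genes, and 119 genes fell in none. Pattern A held 541 genes, of which 539 were lower in the difference. Pattern B held 222 genes (196 higher), pattern C 204 (199 higher), pattern D 78 (59 higher) and pattern E 53 (51 lower). The patterns were formed from these data, so their levels are given without a test.

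Pattern A had its highest levels in SMIR skin at 0 day and 32 days. Between 0 day and 10 days 458 of its 541 genes fell in SMIR, where 12.6% of all genes did. The genes were chosen with these libraries, so the count describes the pattern only. Its median log2(CPM + 0.5) was 4.996, 5.001, 4.94 and 5.24 in SMIR at 0 day, and 3.69, 3.46, 3.44 and 3.57 at 10 days. Between these times it was as low as 2.54 to 3.11 at 6 hours and 2.97 to 3.55 at 2 days, and at 32 days it was 4.19 to 5.31. LPI libraries gave 2.69, 2.78, 3.11 and 2.49 at 0 day, 1.64 to 2.23 at 6 hours, 1.63 to 2.28 at 2 days and 3.10, 3.18, 3.41 and 3.19 at 10 days. In both models the level was lowest at 6 hours and 2 days, but LPI skin at 10 days was above its 0 day range in 3 of 4 libraries, while no SMIR library at 10 days reached the SMIR 0 day range. Pattern A took 6.29% ± 0.520 of counts in SMIR at 0 day and 1.91% ± 0.217 at 10 days (SD, n = 4), against 1.21% ± 0.268 and 1.57% ± 0.261 in LPI. Genes enriched in skin over muscle and dorsal root ganglion, which holds the cell bodies of sensory neurons, made up 70 of the 541 genes (12.9%). Their share of all genes tested was 4.50%. Muscle-enriched genes made up 10 (1.85%, against 1.04%). Both the enriched sets and the pattern were built with the SMIR libraries of 32 days, where pattern A is high, so these counts are a description only.

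Pattern B had a higher median level in LPI skin than in SMIR skin at every time sampled in both models. Of its 222 genes, 177 rose and 20 fell in SMIR between 0 day and 10 days, against 17.7% and 12.6% over all genes. These libraries also chose the genes, so the counts are a description. Its median level was 2.82, 2.97, 2.77 and 2.72 in SMIR at 0 day and 3.57, 3.94, 4.09 and 3.84 at 10 days. In LPI it was 5.04, 4.94, 4.66 and 4.99 at 0 day and 4.93, 4.74, 4.49 and 4.58 at 10 days, and it had been 5.67 to 5.83 at 6 hours. No SMIR library at any time reached the lowest LPI library at 0 or 10 days. The pattern includes genes of very high level, up to a mean of 37065 CPM over the 16 libraries, and took 13.5% ± 1.77 of counts in LPI at 0 day, 9.87% ± 1.50 in LPI at 10 days, 1.78% ± 0.148 in SMIR at 0 day and 3.36% ± 0.948 in SMIR at 10 days (SD, n = 4). Skin-enriched genes made up 40 of its 222 members.

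Of the 204 pattern C genes, 189 rose in SMIR skin by 6 hours, 194 by 2 days and 198 by 10 days, each against 0 day. Over all 17584 genes tested, 4977, 4658 and 3112 rose at these times. The genes were chosen with the 0 day and 10 day libraries, so these counts describe the pattern and do not test it. Their median level was 2.50, 2.58, 2.55 and 2.26 in SMIR at 0 day, 3.84 to 3.93 at 6 hours, 4.21 to 4.43 at 2 days and 4.31, 3.99, 3.85 and 4.08 at 10 days. At 32 days it was 3.32, 1.85, 2.78 and 2.36, with the highest value again in rat 1. In LPI the level was 3.82, 3.73, 3.70 and 3.49 at 0 day, 2.80 to 3.07 at 6 hours, 4.03 to 4.40 at 2 days and 3.46, 3.85, 3.67 and 3.67 at 10 days. LPI skin passed through a low at 6 hours and a high at 2 days, and at 10 days 2 libraries lay within its 0 day range, 1 just above it and 1 just below it.

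Pattern D differed among the SMIR libraries at 10 days. Its median level was 4.33 and 4.18 in rats 3 and 4 and 3.47 and 3.63 in rats 5 and 6, against 2.21 to 2.40 in SMIR at 0 day. It was 4.54 to 4.64 at 6 hours, and at 32 days it was 4.15 in rat 1 and 2.16 to 2.51 in the other libraries. LPI went the other way early, with 3.11 to 3.48 at 0 day, 1.64 to 2.27 at 6 hours, 1.37 to 2.26 at 2 days and 3.30 to 3.77 at 10 days. With 1 of the 16 libraries left out, 54 to 71 of the 78 genes stayed called in the same direction, and without rat 3 or rat 4 at 10 days of SMIR the whole difference held 2251 or 2070 genes. Of the 78 genes, 47 stayed called in the same direction with the rat number of the library as a block. Pattern E fell in SMIR from 3.75 to 4.46 at 0 day to 2.95 to 3.13 at 10 days and was 3.58 to 4.76 at 32 days, while LPI was 3.16 to 3.85 at 0 day and 3.39 to 3.82 at 10 days.

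**Figure D3:**
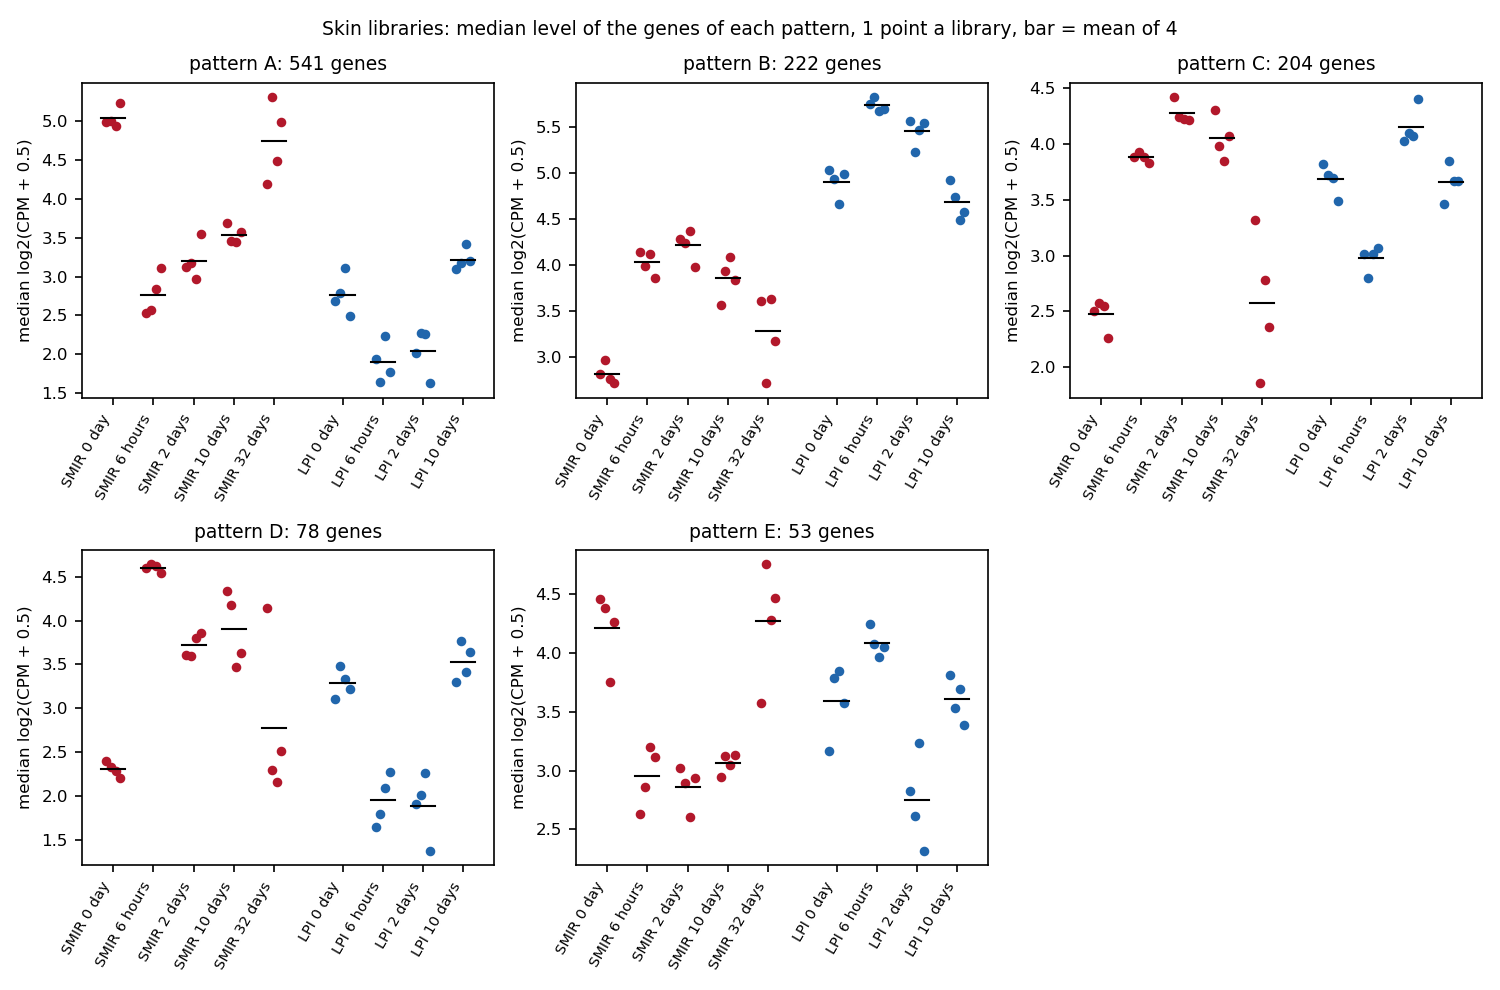
The y axis gives the median log2(CPM + 0.5) over the genes of patterns A to E, with 1 point for each of the 36 skin libraries and a bar for the mean of 4. SMIR at 10 days (3.44 to 3.69 in pattern A, 3.85 to 4.31 in pattern C) lies apart from SMIR at 0 day (4.94 to 5.24 and 2.26 to 2.58), and the y axes differ between panels.

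Muscle was sequenced in separate libraries, whose values chose none of these genes. Its columns carry the same rat numbers as those of skin, so both tissues appear to come from the same animals, and muscle is not a readout from other animals. Of the 1378 genes higher in the skin difference, 1351 were tested in muscle, and 591 of them (43.7%) rose in SMIR muscle at 2 days, where 21.5% of the genes tested in both tissues rose. In LPI muscle at 2 days 628 (46.5%) rose, against 18.9%. Tissue-enriched genes moved in the same muscle libraries at 2 days. Muscle-enriched genes fell in 229 of 257 cases in LPI (89.1%, median −4.61) and in 146 in SMIR (56.8%, median −2.57). Skin-enriched genes rose in 286 of 642 cases in LPI (44.5%, median 2.84) and in 139 in SMIR (21.7%, median 1.19). The part of tissue makeup in the muscle counts was not tested. Of the 1019 genes lower in the skin difference that were tested in muscle, 356 (34.9%) fell in SMIR muscle at 2 days, against 27.9%, and 352 (34.5%) fell in LPI muscle at 2 days, against 19.5%. In SMIR muscle at 10 days 463 of the skin-higher group (34.3%) rose, against 20.7%, and 296 of the skin-lower group (29.0%) fell, against 24.1%. For the SMIR minus LPI change of muscle at 10 days, 184 genes of the skin-higher group were higher (13.6%, against 8.05%) and 128 were lower (9.47%, against 7.10%). The count of 184 was 112 to 228 over the 16 fits that leave 1 library out. It was 112 without SMIR rat 3 at 10 days and 122 without SMIR rat 1 at 0 day. The shares over all genes in those fits are not given here, so these counts cannot be set against 8.05%. Among the skin-lower group 45 were higher (4.42%) and 90 lower (8.83%). In the skin-higher group the share called in the muscle difference exceeded the share over all genes in both directions.

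Pattern C was followed in muscle through its 201 genes tested there. Of these, 159 (79.1%, against 21.5%) rose in SMIR muscle at 2 days. In SMIR muscle at 10 days 144 rose (71.6%, against 20.7%) and 4 fell (24.1% over all genes). In LPI muscle at 2 days 112 rose (55.7%, against 18.9%). The last count was 80 to 116 with 1 library left out, and skin-enriched genes rose in 44.5% of cases in those LPI libraries. In LPI muscle at 10 days 0 were called, where edgeR's test called 14 genes higher and 14 lower of those tested in both tissues (0.0845% each). The SMIR minus LPI change in muscle at 10 days was higher in 78 (38.8%, against 8.05%) and lower in 0. The count of 78 was 46 to 96 over the 16 fits that leave 1 library out, whose shares over all genes are not given here. Without SMIR rat 3 at 10 days it was 46, and without LPI rat 5 at 10 days it was 50. The median level of pattern C in muscle was 0.54, 0.65, 1.03 and 0.79 in SMIR at 0 day, 3.97, 3.66, 3.75 and 3.65 at 2 days and 3.09, 2.41, 2.57 and 2.73 at 10 days. In LPI muscle it was 2.24, 2.63, 2.31 and 2.32 at 0 day, 3.17, 3.83, 4.14 and 3.71 at 2 days and 2.95, 2.28, 2.56 and 1.79 at 10 days. SMIR muscle at 10 days was above its own 0 day range in every library, and LPI muscle at 10 days spread around its 0 day values. Of the 204 genes, 20 are skin-enriched (9.80%, against 4.50% of all genes tested in skin). That count is a description only, since the enriched set and the pattern share the SMIR skin libraries of 32 days.

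Of 505 pattern A genes tested, 134 (26.5%) fell in SMIR muscle at 2 days, against 27.9%, and 200 (39.6%) fell in LPI muscle at 2 days, against 19.5%. At 2 days 79 of 211 pattern B genes (37.4%) rose in SMIR muscle and 112 (53.1%) in LPI muscle, where 21.5% and 18.9% of all genes did. The part of skin-enriched genes in the pattern B count was not tested.

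**Figure D4:**
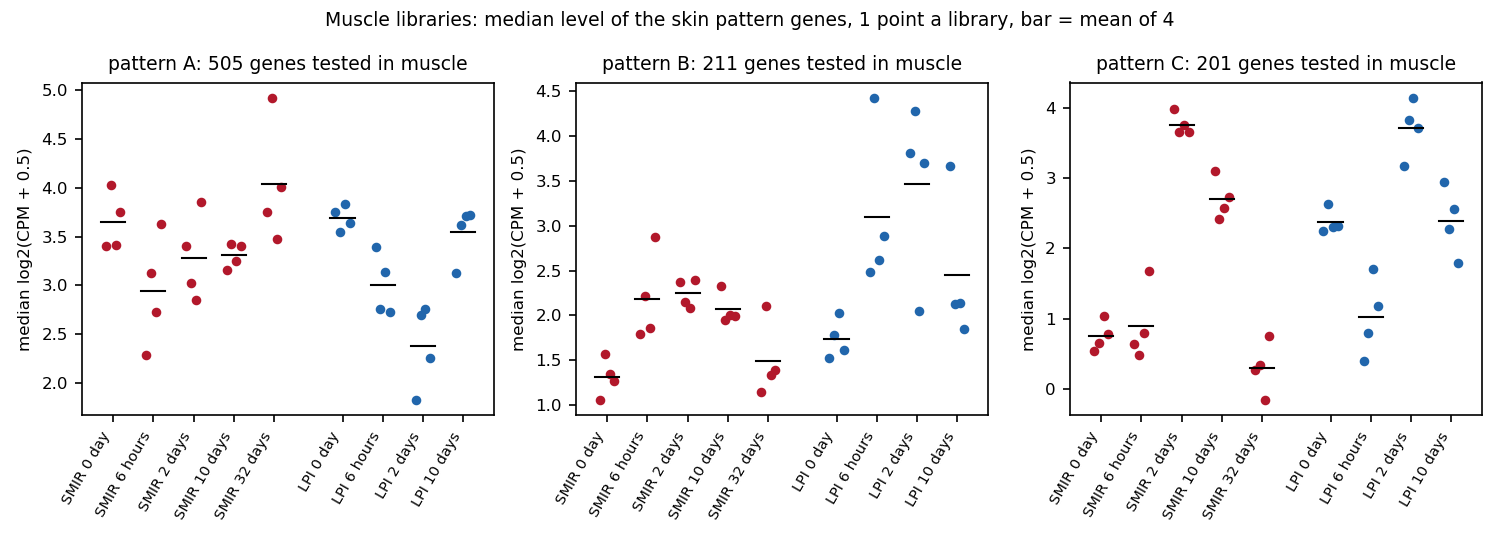
The y axis gives the median log2(CPM + 0.5) in muscle over the genes of patterns A, B and C that were tested there, with 1 point for each of the 36 muscle libraries and a bar for the mean of 4. In pattern C the SMIR libraries at 10 days (2.41 to 3.09) lie above those at 0 day (0.54 to 1.03), and in LPI the 10 day range (1.79 to 2.95) covers that of 0 day (2.24 to 2.63).

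The reverse reading started from muscle. At least 2-fold at 2 days in muscle of both models, 1147 genes rose and 1280 fell. Of the 1127 risen genes tested in skin, the difference at 10 days was higher in 236 (20.9%) and lower in 33 (2.93%), and its median was 0.31. Of the 1197 fallen genes tested in skin, it was higher in 23 (1.92%) and lower in 152 (12.7%), and its median was −0.47. The corresponding shares over all genes were 7.84% and 6.09%.

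Tissue-enriched genes were taken from the SMIR libraries at 32 days, as genes of at least 5 CPM and 8 times the level of each of the other tissues. The skin libraries at 32 days are in none of the groups of the difference but share its fit. The difference was higher in 105 (13.3%) and lower in 87 (11.0%) of 791 skin-enriched genes, both above the shares over all genes, and its median was 0.22. Their share of counts was 21.8% to 26.3% in LPI at 0 day and 19.0% to 21.6% at 10 days, and 10.7% to 11.8% and 11.0% to 13.2% in SMIR. Of 183 muscle-enriched genes tested, 4 were higher and 22 (12.0%) lower. Their median difference was −1.17, from a median change of −0.23 in SMIR and of 0.86 in LPI. They took 0.0739% to 0.0832% of counts in LPI at 0 day, 0.0960% to 0.135% in LPI at 10 days, 0.142% to 0.187% in SMIR at 0 day and 0.121% to 0.152% in SMIR at 10 days. The share of muscle-enriched genes thus moved with the difference at a low level. Of the 1071 lower genes, 22 are muscle-enriched (2.05%, against 1.04% of all genes tested). The part of muscle RNA in the other genes was not tested. Ganglion-enriched genes had a median difference of −0.31 over the 841 tested, with 43 (5.11%) called higher and 48 (5.71%) called lower, below the shares over all genes.

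Single genes were followed in every library for the 2 largest differences in each direction among genes with at least 10 counts in each of the 16 libraries, a rule chosen after values were seen. The rule first set had given 4 genes with no count in all 4 libraries of SMIR or of LPI at 0 day, whose fold changes cannot be interpreted, and 3 of these had a partner with near-identical counts. Among the 2449 genes, 55 had no count in all libraries of at least 1 of the 4 groups. A further check found 36 genes in 18 pairs whose counts differed by less than 2% of their sum.

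ENSRNOG00000048579, of pattern B, had the largest positive difference under this rule. It was at 1.00, 3.49, 1.46 and 0.510 CPM in SMIR at 0 day and at 116, 89.0, 24.0 and 12.7 CPM at 10 days in rats 3, 4, 5 and 6. The LPI level was at 129, 221, 193 and 263 CPM at 0 day and 170, 207, 146 and 197 CPM at 10 days. SMIR skin at 10 days was above its own 0 day range in every library and still below every LPI library. The log2 change was 5.23 (SE 0.94) in SMIR and −0.16 (SE 0.76) in LPI, and the difference of 5.39 (SE 1.18) had an adjusted p of 0.00287 with edgeR. Over the 16 fits that leave 1 library out it was 4.87 to 6.11, the highest without SMIR rat 2 at 0 day. SMIR at 6 hours held 315 to 372 CPM, within the LPI range at 6 hours of 198 to 616 CPM, and SMIR at 32 days ranged from 0.676 to 104 CPM, highest in rat 1.

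ENSRNOG00000012008 is a member of pattern D. It was at 1.61, 4.34, 1.13 and 1.19 CPM in SMIR at 0 day and at 488, 270, 30.8 and 32.3 CPM at 10 days in rats 3, 4, 5 and 6. LPI skin held 7.69, 228, 113 and 83.9 CPM at 0 day and 169, 460, 220.0 and 568 CPM at 10 days. LPI spread widely at 0 day and overlapped with its 10 day values, and the SMIR groups did not overlap. The changes were 6.63 (SE 1.42) in SMIR and 1.71 (SE 1.12) in LPI, with a difference of 4.92 (SE 1.67, edgeR adjusted p = 0.0473). That call was lost in 12 of the 16 fits that leave 1 library out (edgeR adjusted p of 0.0361 to 0.114 and differences of 4.04 to 5.59 over all 16, the lowest without SMIR rat 3 at 10 days the highest without SMIR rat 2 at 0 day, and 4.25 without LPI rat 2 at 0 day), in a fit of unfiltered counts (0.0697) and in one with the length slope (0.159). Between 2 and 10 days the difference was −7.35 (SE 1.76, edgeR adjusted p = 0.00702), since LPI skin held 1.69 to 2.78 CPM at 2 days and SMIR skin 124 to 335 CPM.

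ENSRNOG00000045797, of pattern A, had the largest negative difference under this rule. It was at 64.5, 67.1, 86.0 and 182 CPM in SMIR at 0 day and at 7.47, 1.26, 1.43 and 3.99 CPM at 10 days. LPI skin held 1.05, 0.878, 2.38 and 0.986 CPM at 0 day and 1.13, 0.894, 3.12 and 4.58 CPM at 10 days. The SMIR groups did not overlap, and SMIR at 10 days lay within the range of LPI in 3 of 4 libraries. The changes were −4.81 (SE 0.81) in SMIR and 0.88 (SE 0.83) in LPI, and the difference was −5.69 (SE 1.13, edgeR adjusted p = 0.00131). Over the 16 fits that leave 1 library out it was −6.36 to −5.13, the lowest without SMIR rat 3 at 10 days. It was at 5.84 to 32.9 CPM in SMIR at 6 hours, 1.32 to 6.84 CPM at 2 days and 13.3 to 166 CPM at 32 days. The change from 2 to 32 days was 4.66 (SE 0.81, edgeR adjusted p = 4.15e-05). Both of its groups lie outside the 16 libraries, but the estimate of the spread is shared with them.

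ENSRNOG00000046667, 1 of the 26 lower genes that fell in pattern B, was uneven in SMIR at 0 day, at 61.3, 86.1, 2.71 and 384 CPM, and was at 4.83, 10.2, 1.09 and 1.75 CPM at 10 days. In LPI it was at 43.7, 15.2, 15.2 and 33.4 CPM at 0 day and 108, 14.2, 1.91 and 34.2 CPM at 10 days. Its SMIR groups overlapped through rat 3 at 0 day, and its LPI groups overlapped. The changes were −4.90 (SE 1.06) in SMIR and 0.55 (SE 0.90) in LPI, and the difference was −5.45 (SE 1.36, edgeR adjusted p = 0.00752). It was −4.02 without SMIR rat 4 at 0 day, −4.23 without LPI rat 4 at 10 days and −6.22 without SMIR rat 4 at 10 days, with edgeR adjusted p-values up to 0.0375 over the 16 fits that leave 1 library out. At 32 days SMIR skin was still at 1.56 to 11.5 CPM, a change of −4.72 from 0 day with an edgeR adjusted p of 0.0108. That call was lost in a fit of the groups compared alone (edgeR adjusted p = 0.282).

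**Figure D5:**
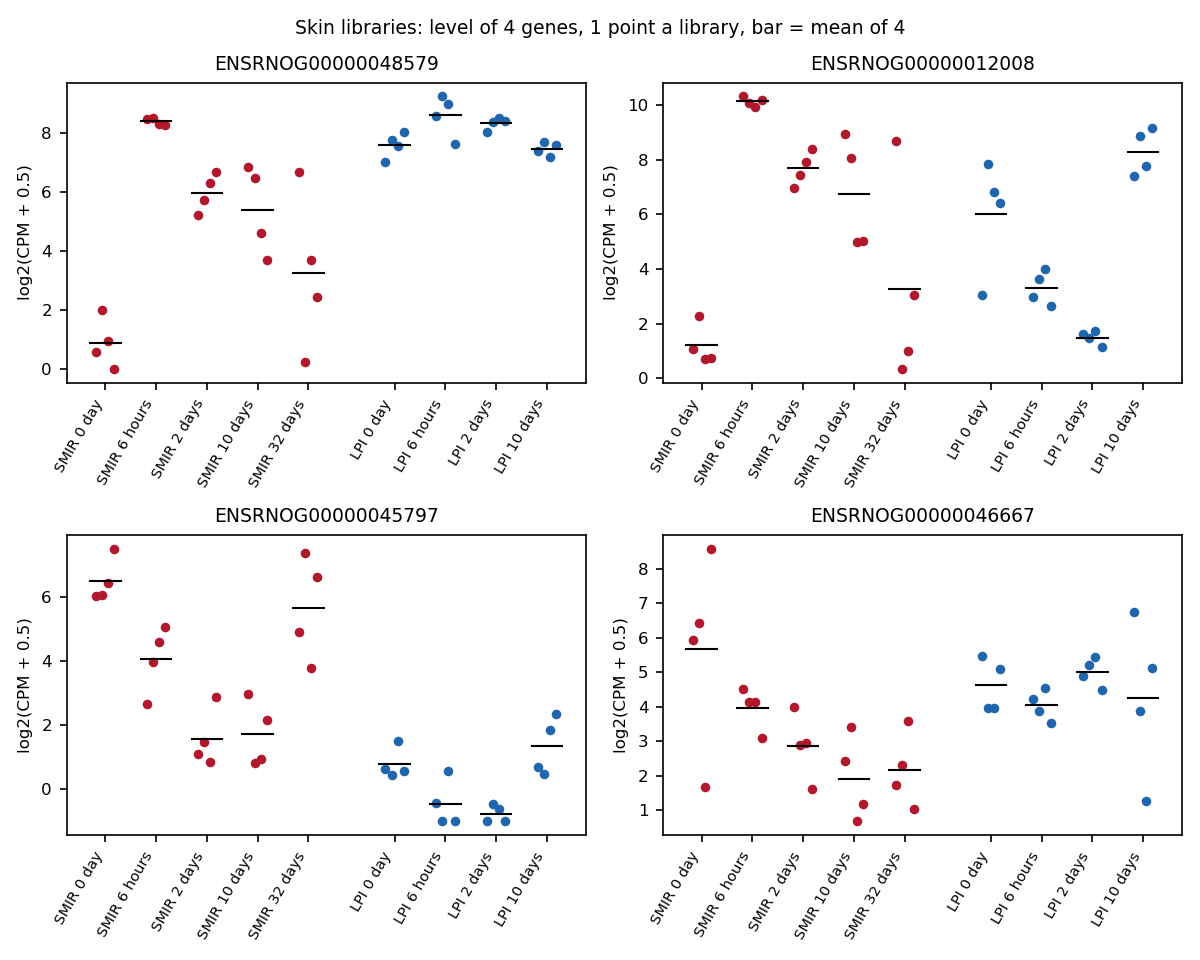
The y axis gives log2(CPM + 0.5) of 4 genes, with 1 point for each of the 36 skin libraries and a bar for the mean of 4. The 2 upper genes rise in SMIR from under 5 CPM at 0 day to 12.7 to 488 CPM at 10 days, and the 2 lower genes fall in SMIR to 1.09 to 10.2 CPM.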

How the data were processed

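RNA was sequenced from rat skin, muscle and dorsal root ganglia. The authors deposited read counts per gene, whole numbers that were not normalized, and FPKM values, 1 table of each for every model and tissue. FastQC 0.11.2, STAR and StringTie and the builds rn6 and hg38 are named in the submitters' processing notes, with no roles. The sources used here do not give the counting settings, the annotation or any filter. From the FPKM values the authors deposited, only gene length was taken, as the ratio of CPM to FPKM. Columns were assigned to groups by name, with the time code 1 taken as 6 hours by elimination, and 0 columns were left out. The number in a column name is called the rat here and is not the labels' replicate number. Counts were compared in 24 library pairs within groups, and chi-square over its degrees of freedom was 15.6 or more.

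All 36 skin libraries (9 groups of 4) were fitted by edgeR's quasi-likelihood method (version 4.0.16, R 4.3.3) after filterByExpr and TMM scaling, with robust dispersions. Tests were two-sided, and "called" means a Benjamini-Hochberg adjusted p under 0.05. Standard errors are the absolute log2 change over the square root of the F statistic. Muscle was fitted alike, and the 2 tissues were not tested against each other. Library totals limit precision for low genes most. Patterns came from average linkage on correlation distance, with 0.6 as the largest distance. The script was tested on simulated data. Alternatives were DESeq2 1.42.0, RLE and upper-quartile scaling, no filter on low counts, the groups compared alone, the rat number as a block, a gene-length covariate and each library left out.

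The members and lists were chosen with earlier results of these data known. The 41 gene lists (652 symbols) and the naming rule by symbol could not be applied, since 0 of the IDs matched a table of 47357 rat genes. The rule that followed in that case, the 2 largest differences in each direction at a mean of at least 5 CPM, was replaced as the text says.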

Additional observations from a re-analysis of the deposited data

Results flagged for a closer look

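The change at 10 days differed between SMIR and LPI in 2449 genes by the test of the difference itself. It differed for the 4 genes given by ID, by 5.393 for ENSRNOG00000048579, 4.919 for ENSRNOG00000012008, −5.687 for ENSRNOG00000045797 and −5.452 for ENSRNOG00000046667 on the log2 scale.

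Single libraries lay far from the other 3 of their group in 3 of 64 groups of values examined, and chance gives about 1 in 20 groups. ENSRNOG00000012008 was at 4.343 CPM in SMIR at 0 day in rat 2, against 1.125 to 1.611 in the others. ENSRNOG00000045797 was at 2.378 CPM in LPI at 0 day in rat 3, against 0.8778 to 1.052. The 100 most abundant genes took 36.45% of counts in LPI at 10 days in rat 4, against 28.98% to 30.14%.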

How the results depend on the processing

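The count of 2449 genes was 1989 to 3215 over the 7 alternatives of the fit and 1796 to 2800 with 1 library left out. The SMIR change gave 4210 to 4646, the site difference at 0 day 8013 to 8740, the difference between 2 and 10 days 1364 to 2672 and SMIR at 32 against 2 days 5648 to 7821 genes with 1 library left out. The LPI change, 491 genes, was 59 to 915 with 1 library left out, 2 in the 8 libraries alone, 325 with the rat number as a replicate block and 1039 with DESeq2. The site difference gave 4558 genes with the length covariate. SMIR at 32 against 2 days gave 4671 genes in the groups compared alone and 3213 with the length covariate. The covariate's values separate some groups, so it removes part of the group difference by construction. The difference between 2 and 10 days gave 980 genes with the replicate block. The rat numbers do not pair the libraries: correlations of deviations were −0.137 to 0.212 over 13 same-number pairs and −0.301 to 0.264 over 83 others, and 1 of 15 libraries correlated best with its own number. With the block 2122 genes were called in the main difference, and ENSRNOG00000012008 had an edgeR adjusted p of 0.135. No value of the 4 genes that was called in the main fit or in the alternative reversed in direction. Changes of sign in values called in neither were not counted. Where no cause is named above, it was not tested. Depth limits low genes, and sites, sequencing depth and models cannot be told apart.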

Other observations

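Across the 17584 genes tested, the SMIR change and the LPI change at 10 days, which share no library, had a Pearson correlation of 0.202. This is a description over genes, which are not independent replicates. The 3 genes that rose in both models and rose more in SMIR had median log2 changes of 2.86 in SMIR and 1.21 in LPI.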
